A study of Schizosaccharomyces pombe with 4 samples.

Results

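Divergent genes are neighbours that are transcribed away from each other from a shared stretch of DNA between their 5′ ends. The 535 genes described here were chosen by position alone from the authors' table of Schizosaccharomyces pombe. They are protein-coding, at least 800 and under 5000 bases long, have fewer than 5 exon blocks and are overlapped by no annotated feature on the opposite strand. Their nearest upstream protein-coding gene lies on the opposite strand with its 5′ end 1 to 1000 bases away. They make up 10.4% of the 5134 protein-coding genes in the table and include 97 pairs in which both genes meet the rule.

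The study compared spt6-1, a strain carrying a mutant allele of spt6, with wild type (WT), each with 2 libraries. Both strains were prototrophic, grew in the rich medium YES at 30 °C and were shifted to 37 °C for 2 h, so that the WT cells also carry the heat shift. The RNA was polyadenylated, and ligation of adaptors to it preserved the strand before sequencing on a Genome Analyzer IIx. Whether replicates are separate cultures is not in the labels, and p-values therefore reflect only how these libraries vary.

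Spt6 is a histone chaperone that travels with RNA polymerase II and helps put nucleosomes back behind it. In yeasts, loss of its function is known to let transcription start inside genes and on the strand opposite to the gene. A promoter between divergent genes serves both directions, and the far end of such a gene, where many antisense transcripts of yeast begin, lies away from its divergent partner.

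Intergenic sequences of 4 of the genes are printed because of the antisense change of the gene or because they carry a motif of a known gene class. No result on antisense RNA below was drawn from the sequences. Each is given 5′ to 3′ on the strand of the gene named first, ends at the base before that gene's annotated 5′ end, and was read from the RefSeq genome ASM294v3, whose nuclear chromosomes matched the table's ASM294v2 coordinates. Capitals mark a TATA box (TATAAA), a heat shock element (GAANNTTC) or a HomolD box (CAGTCACA, here on the partner's strand). By the log2 changes tested below, the spacer of slu7 and pmt3 belongs to the gene with the largest antisense change. That of sdh3 and rpc37 belongs to the gene with the largest antisense decrease.
slu7 to pmt3, chrII:2506692-2506814, minus strand: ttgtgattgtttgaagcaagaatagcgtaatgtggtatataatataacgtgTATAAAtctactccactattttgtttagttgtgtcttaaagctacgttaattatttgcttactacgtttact
sdh3 to rpc37, chrIII:136697-136732, minus strand: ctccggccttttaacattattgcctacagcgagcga
hsp16, 250 bases upstream, chrII:2660993-2661242, minus strand: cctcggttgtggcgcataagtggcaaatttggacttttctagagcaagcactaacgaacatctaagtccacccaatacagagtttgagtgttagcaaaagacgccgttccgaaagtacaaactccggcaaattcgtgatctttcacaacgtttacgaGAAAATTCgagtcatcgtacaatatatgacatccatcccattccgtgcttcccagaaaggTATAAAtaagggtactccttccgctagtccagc
trz2 to rps2501, chrII:1274128-1274228, minus strand: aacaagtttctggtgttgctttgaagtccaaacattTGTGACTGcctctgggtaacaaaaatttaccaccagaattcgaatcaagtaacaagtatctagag

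The genes were 809 to 4686 bases long, with a median of 1794 bases, and 289 of them had 1 exon block. The distance between the divergent 5′ ends had a median of 421 bases. The closest were cnb1, the regulatory subunit of calcineurin, at 1 base from epl1, and mis3, an rRNA-processing gene, at 3 bases from mtg1. The farthest inside the limit were bxi1, a BAX inhibitor family gene, at 991 bases and cid13, a cytoplasmic poly(A) polymerase gene, at 992 bases. Just outside it stood the divergent genes sec73 and SPAC19A8.02, whose 5′ ends are 1003 bases apart. The downstream neighbour lay on the same strand in 360 genes and on the opposite strand in 175. Of the 535 genes, 11 share over 10% of their length with a near-identical copy elsewhere, among them 5 Tf2 retrotransposons, rpl301, rpl1001 and rpn501. How reads that match several copies were handled was not given, so the levels of these genes may include reads of a copy.

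In the authors' files, sense values are reads per kilobase of exons and antisense values reads per kilobase of the whole locus, scaled to library size (RPKM). The libraries held 39693042 and 16894607 sense reads in spt6-1 replicates 1 and 2, and 36520471 and 17093322 in WT replicates 1 and 2. The spt6 gene itself had 12.7 and 8.32 sense RPKM in the spt6-1 libraries, against 65.5 and 61.6 sense RPKM in the WT libraries. Its antisense level was 50.5 and 25.5 RPKM in spt6-1 and 0.0631 and 0.0263 RPKM in WT.

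Antisense RNA was higher in spt6-1 over nearly the whole class. The median antisense level of the 535 genes was 2.75 and 2.32 RPKM in the 2 spt6-1 libraries, against 0.183 and 0.184 RPKM in the WT libraries. Of the reads on these genes, 3.68% and 3.79% were antisense in spt6-1, against 0.543% and 0.564% in WT. The antisense level of both spt6-1 libraries was above that of both WT libraries in 506 genes and below it in 5. The 506 are 94.6% of the class, against 86.2% of all coding genes. Among other coding genes of the same length and structure with no opposite-strand overlap the share was 96.1%, so this order is not particular to the class. In bulk RNA, more cells with such a transcript and more transcript per cell cannot be told apart.

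Tested with limma on log2(RPKM + 0.5) without a filter on low values, 496 of all 535 genes were higher on the antisense strand in spt6-1 at a Benjamini-Hochberg adjusted p under 0.05 and 1 was lower. The background over all coding genes was 79.8% higher and 1.42% lower in the same fit. With the filter of at least 0.5 antisense RPKM in 2 libraries, 469 genes were tested, 449 were higher and 2 were lower, against a background of 81.9% and 1.65%. Of the 469, 312 passed the filter only through the spt6-1 libraries and so had to differ, and 66 genes were not tested. Without spt6-1 replicate 1 the filter left 157 genes, of which 124 were higher, and without spt6-1 replicate 2 it left 156, of which 138 were higher. When all antisense distributions were forced to be equal (quantile normalization), the median change of all tested coding genes moved to -0.08 on the log2 scale from 1.58, and 176 of the 469 were higher and 81 lower.

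The 1170 other coding genes of the same length and structure with no opposite-strand overlap had medians of 2.92 and 2.47 antisense RPKM in spt6-1 and 0.190 and 0.188 RPKM in WT, and 93.1% of them were higher without the filter. The 2465 genes with an opposite-strand overlap had 5.56 and 4.76 antisense RPKM in spt6-1, against 1.25 and 1.14 RPKM in WT. These are the values side by side, and no test of the difference between the classes was made. The antisense level of 19 of the 535 genes was 0 reads in both WT libraries, and that of 0 genes in both spt6-1 libraries.

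**Figure D1:**
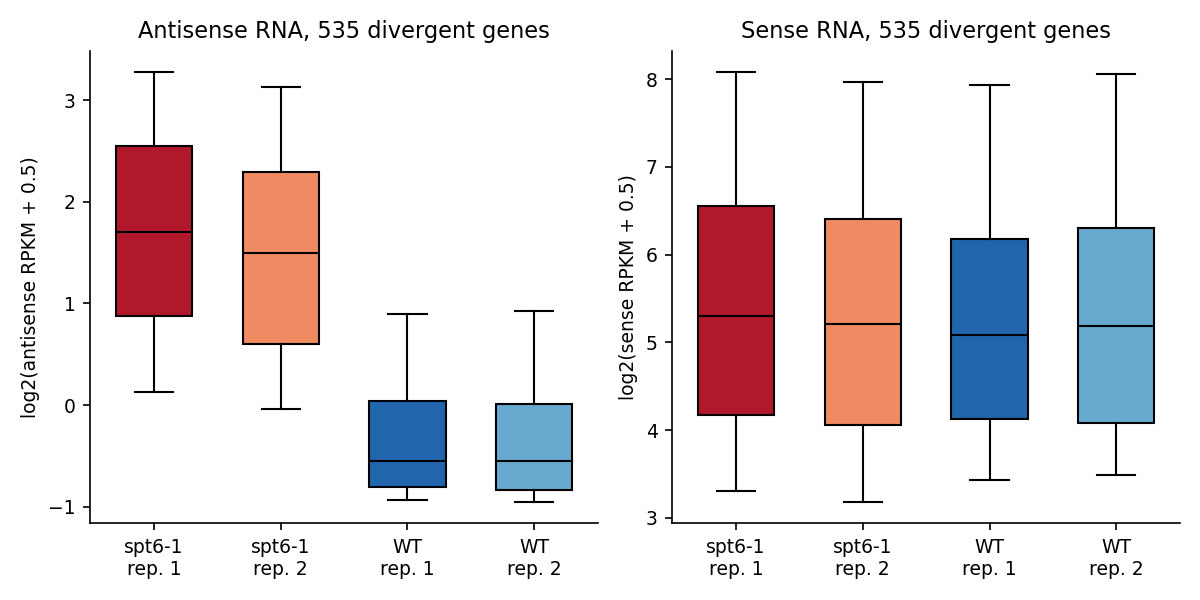
Levels of the 535 divergent genes in each library on the log2(RPKM + 0.5) scale, antisense at left and sense at right, with spt6-1 libraries left of WT libraries. Boxes span the 25th to 75th percentiles with the median as a line and whiskers reach the 10th and 90th percentiles. The antisense boxes of spt6-1 lie above those of WT, with medians of 2.75 and 2.32 RPKM against 0.183 and 0.184 RPKM, and the sense boxes lie side by side.

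Genes are given from the largest antisense increase that passed the test downward. slu7 (chrII:2505270-2506691), a splicing factor gene, had 67.7 and 50.9 antisense RPKM in spt6-1, against 0.979 and 1.59 RPKM in WT. This was a log2 change of 5.07 ± 0.24 (SE, n = 2 each; limma adjusted p = 6.57e-07), while its sense level was 21.1 and 16.6 RPKM in spt6-1 and 21.4 and 15.0 RPKM in WT. Antisense RNA of slu7 stood above its sense RNA in both spt6-1 libraries and below it in both WT libraries. Its partner across the printed spacer, pmt3, which encodes the SUMO protein, had 14.5 and 13.9 antisense RPKM in spt6-1, against 16.0 and 17.6 RPKM in WT, and did not pass the test (adjusted p = 0.275). The next gene downstream of slu7, SPBC365.04c, lies on the same strand.

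SPAC2C4.07c, annotated as the exoribonuclease Dis32, had 20.7 and 14.8 antisense RPKM in spt6-1, against 0.0767 and 0.107 RPKM in WT, a log2 change of 4.93. Its sense RNA moved the other way, with 6.62 and 6.13 RPKM in spt6-1 and 15.1 and 12.1 RPKM in WT (log2 -1.03, adjusted p = 0.00949). The sense call was lost without WT replicate 1 (adjusted p = 0.0551). rpn7, a subunit of the proteasome's regulatory particle, had 20.0 and 17.2 antisense RPKM in spt6-1, against 0.217 and 0.124 RPKM in WT, and a sense change of 0.10. shk1, a PAK-like kinase gene of cell polarity, had 26.7 and 16.9 antisense RPKM in spt6-1, against 0.408 and 0.258 RPKM in WT.

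nda2, which encodes an alpha-tubulin, had 10.4 and 9.49 antisense RPKM in spt6-1, against 0.0756 and 0.0316 RPKM in WT. mis3 had 9.16 and 8.43 antisense RPKM in spt6-1, against 0.0498 and 0.0520 RPKM in WT. In all 6 of these genes the lower spt6-1 library lay far above the higher WT library, but they were chosen as the largest increases. Both WT levels of SPAC2C4.07c, rpn7, shk1, nda2 and mis3 were under 0.5 RPKM. Those genes passed the filter only through the spt6-1 libraries and so had to differ, and they also passed without the filter. The downstream neighbour lay on the same strand for slu7, SPAC2C4.07c, rpn7 and shk1 and on the opposite strand for nda2 and mis3.

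Only 2 genes of the 469 tested were lower on the antisense strand. sdh3 (chrIII:135724-136696), a membrane subunit of succinate dehydrogenase, had 1.62 and 1.13 antisense RPKM in spt6-1, against 3.61 and 3.11 RPKM in WT. Its log2 change was -1.05 ± 0.22 (SE, n = 2 each; limma adjusted p = 0.00162). Its partner rpc37, a subunit of RNA polymerase III at the other end of the 36-base spacer printed above, had 7.99 and 7.00 antisense RPKM in spt6-1, against 1.06 and 0.940 RPKM in WT (log2 2.41). Both genes passed the antisense test, in opposite directions. smn1, a subunit of the SMN complex that assembles spliceosomal particles, had 0.391 and 0.341 antisense RPKM in spt6-1, against 0.539 and 0.882 RPKM in WT (log2 -0.47, adjusted p = 0.0442). Those values rest on 13 and 7 reads in spt6-1 and 23 and 18 reads in WT, and the call was lost under 7 of the 10 alternative settings that gave a value. Another 18 tested genes passed in neither direction.

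Antisense RNA outweighed sense RNA in both spt6-1 libraries in 23 genes, 18 of which had less antisense than sense RNA in both WT libraries. Some of these were picked out after their values were seen. tas3 and chp1, which encode subunits of the RITS complex of heterochromatin silencing, are among the 23. tas3 had 13.3 and 10.7 antisense RPKM in spt6-1, against 0.480 and 0.712 RPKM in WT, and 8.55 and 7.11 sense RPKM in spt6-1, against 9.86 and 8.59 RPKM in WT. chp1 had 5.33 and 3.68 antisense RPKM in spt6-1, against 0.202 and 0.0754 RPKM in WT, with sense levels of 4.02 and 3.15 RPKM in spt6-1 and 7.81 and 7.00 RPKM in WT. rhp42, a DNA repair gene, had 19.6 and 19.4 antisense RPKM in spt6-1, against 0.555 and 1.41 RPKM in WT. Among the other like genes, 48 of 1170 showed the same order in spt6-1, and among the genes with an opposite-strand overlap 385 of 2465. Less antisense than sense RNA in both WT libraries was found in 37 of the 48 and in 105 of the 385. Antisense already stood above sense RNA in both WT libraries in 306 of the 2465, in 9 of the 1170 and in 5 of the 535. The 2 levels are per exon and per locus length, so spliced genes are set slightly apart by that.

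**Figure D2:**
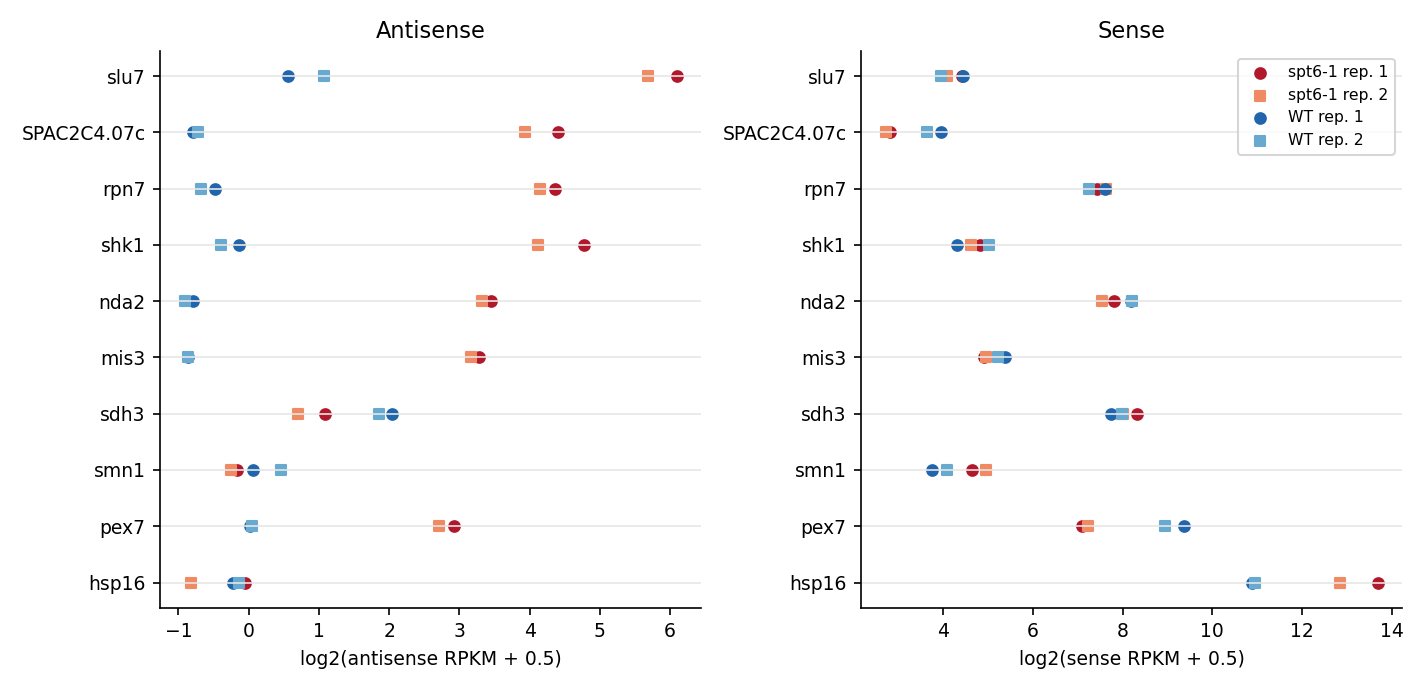
Antisense (left) and sense (right) levels of 10 named divergent genes in each library, on the log2(RPKM + 0.5) scale, red and orange for spt6-1 replicates and blue for WT replicates. The first 6 genes lie far to the right in spt6-1 on the antisense side, sdh3 and smn1 lie to the left, and pex7 and hsp16 separate on the sense side.

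The antisense rise was graded by gene length. Genes of 800 to 1200 bases (103 genes) had median antisense levels of 1.56 and 1.22 RPKM in spt6-1, against 0.186 and 0.195 RPKM in WT. Genes over 1200 and up to 1800 bases (166 genes) had 2.53 and 2.23 RPKM in spt6-1, against 0.202 and 0.214 RPKM in WT, and genes over 1800 and up to 2500 bases (135 genes) had 3.14 and 2.40 RPKM in spt6-1, against 0.145 and 0.161 RPKM in WT. Genes over 2500 bases (131 genes) had 3.78 and 2.92 RPKM in spt6-1, against 0.205 and 0.183 RPKM in WT. All of these levels are per kilobase of locus. Without the filter, 81 of the 103 shortest genes and 131 of the 131 longest genes were higher, against 79.8% of all coding genes. From the shortest to the longest class the shares were 78.6%, 93.4%, 95.6% and 100%. Among the other like genes they were 87.2%, 91.4%, 96.9% and 94.6%, a flatter course that did not rise in the longest class.

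Without the 107 genes of lowest and the 107 genes of highest sense level, the medians of spt6-1 replicate 1 from the shortest to the longest class were 2.10, 3.11, 3.27 and 3.76 RPKM. Those of spt6-1 replicate 2 were 1.70, 2.74, 2.40 and 2.98 RPKM, lower in the next-to-longest class than in the one before it. The other like genes, at all sense levels, had 2.12, 2.81, 3.10 and 3.45 RPKM in spt6-1 replicate 1 and 1.93, 2.58, 2.58 and 2.61 RPKM in replicate 2. Across the 535 genes, Spearman's rho of the antisense log2 change with length was 0.349, given as a description since all points share 4 libraries. With the distance between the divergent 5′ ends it was 0.041, and with the partner's sense change 0.014.

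By sense level, the highest of 5 equal classes (107 genes, mean over 124 RPKM) had 1.59 and 1.14 antisense RPKM in spt6-1, against 0.0667 and 0.0632 RPKM in WT. The other classes had medians from 2.34 to 3.30 RPKM in spt6-1, against 0.160 to 0.361 RPKM in WT. The log2 change of the highest class had a median of 1.65, and that of the lowest class 1.69. Both are on the log2(RPKM + 0.5) scale, and the added 0.5 RPKM lies above the WT medians of both classes. The lowest class had medians of 3.09 and 2.62 antisense RPKM in spt6-1, against 0.361 and 0.304 RPKM in WT. The similar log2 medians therefore do not show that the rise in RPKM was equal in these classes. Genes whose downstream neighbour lies on the same strand had medians of 3.05 and 2.52 RPKM in spt6-1, against 0.196 and 0.195 RPKM in WT. Genes that face an oppositely oriented downstream neighbour had 2.34 and 1.76 RPKM in spt6-1, against 0.142 and 0.138 RPKM in WT. Without the filter, 334 of the 360 genes with a same-strand neighbour and 162 of the 175 others were higher.

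**Figure D3:**
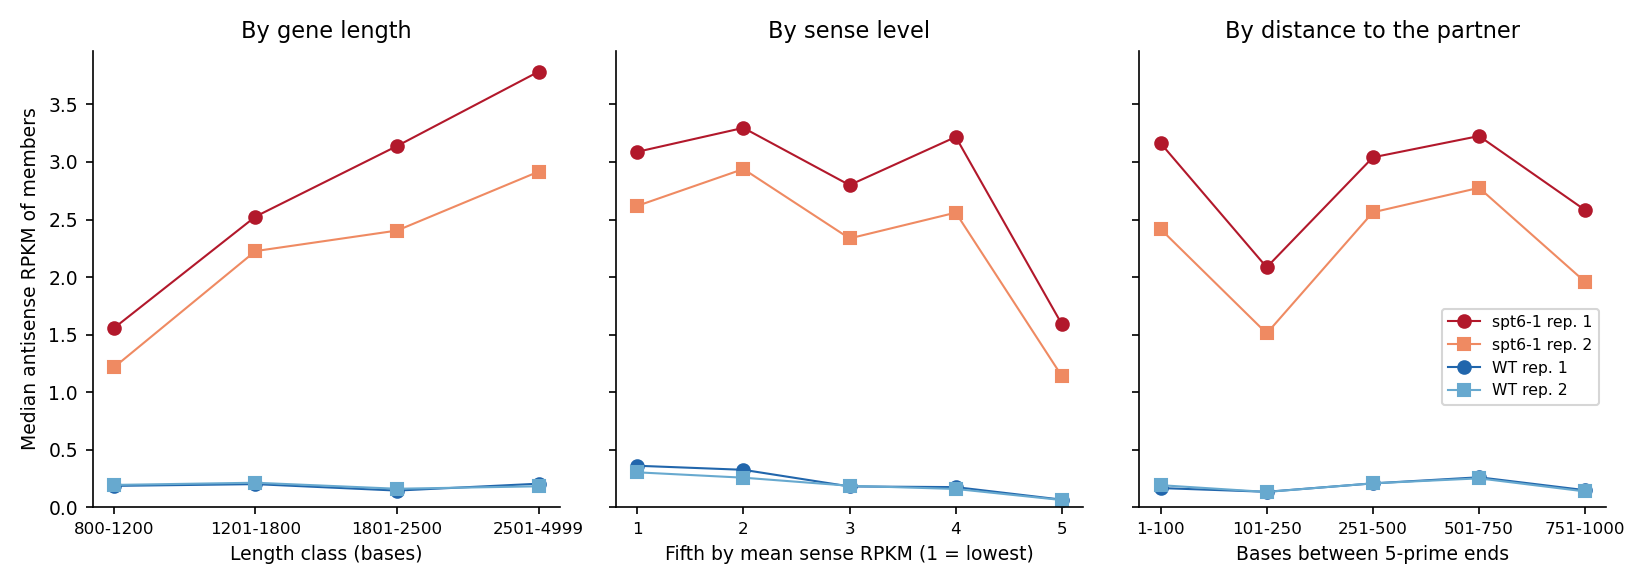
Median antisense RPKM of the divergent genes in each library by length class, by 5 equal classes of mean sense level and by distance between the divergent 5′ ends, red and orange for spt6-1 and blue for WT. The spt6-1 lines climb with length to 3.78 and 2.92 RPKM and drop in the highest sense class to 1.59 and 1.14 RPKM, while the WT lines stay under 0.4 RPKM.

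On the sense strand the class had medians of 39.0 and 36.4 RPKM in spt6-1 and 33.4 and 35.8 RPKM in WT. Of the 533 genes tested, 52 were higher and 30 lower (limma, adjusted p under 0.05), which is 9.76% and 5.63% against a background of 12.1% and 8.20% of all coding genes. Without the filter on low values 20 were higher and 16 lower, against 8.01% and 4.66% of all coding genes. Over all 6547 features tested, the background was 21.8% higher and 6.67% lower. Leaving out 1 library leaves a single library in its strain, which is then assumed to vary like the other strain's pair, and gave fewer calls: they were 23 and 16 when spt6-1 replicate 1 was left out, 31 and 12 when spt6-1 replicate 2 was, 27 and 13 when WT replicate 1 was and 46 and 17 when WT replicate 2 was. Centring the libraries on their medians, which moved the median change of all tested features to 0.04 from 0.16, gave 34 higher and 38 lower, and quantile normalization gave 28 higher and 64 lower. The number by which the authors' values of spt6-1 replicate 1 were divided is 70.5% of its sense reads, against 98.3% to 102% in the other libraries, and its part in these calls was not tested.

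Of the 52 genes with higher sense RNA, 8 lie less than 100 kb from a chromosome end on chromosome I or II, out of 9 such genes in the class. Among the genes of the class elsewhere, 44 of the 524 tested were higher, and the background over all coding genes was 12.1%. The share among genes near these ends outside the class was not computed. The count therefore cannot be called particular to divergent genes. The 5 largest sense increases were all among the 8. SPBPB8B6.02c, annotated as a urea transporter, had 7.72 and 8.59 sense RPKM in spt6-1, against 0.416 and 0.136 RPKM in WT. Its log2 change was 3.50 (limma adjusted p = 0.00888 without the filter on low values). SPAC869.03c, another annotated urea transporter, had 7.30 and 5.27 sense RPKM in spt6-1, against 0.343 and 0.110 RPKM in WT. SPAC869.04, the formamidase-like gene 388 bases away, had 6.55 and 5.12 sense RPKM in spt6-1, against 0.181 and 0.0471 RPKM in WT. In these 3 genes both spt6-1 libraries lay far above both WT libraries, whose levels were under 0.5 RPKM. They are among 5 genes of the class that passed the sense filter only through the spt6-1 libraries and so had to differ, all 5 of which were called higher, and without the filter SPAC869.03c (adjusted p = 0.0111) and SPAC869.04 (adjusted p = 0.00827) also passed.

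SPAC186.05c, a GDT1-like gene, had 80.2 and 70.8 sense RPKM in spt6-1, against 0.890 and 21.5 RPKM in WT. Its WT libraries were far apart, and its call was lost in 6 alternative settings. SPBCPT2R1.01c, an uncharacterized gene, had 289 and 224 sense RPKM in spt6-1, against 51.8 and 24.7 RPKM in WT, and has a near-identical copy. The divergent partner of each of these 5 genes also passed the test on the sense strand, in the same direction. SPAC869.03c and SPAC869.04 are each other's partner. SPAC186.06 had 9.10 and 4.68 sense RPKM in spt6-1, against 0.0750 and 0.157 RPKM in WT. SPBPB8B6.03, an acetamidase gene, had 6.29 and 5.69 sense RPKM in spt6-1, against 0.276 and 0.144 RPKM in WT. Both WT levels of SPAC186.06 and of SPBPB8B6.03 were under 1 RPKM. These partners therefore passed the sense filter only through the spt6-1 libraries and had to differ. They kept their calls in all 11 alternative settings that gave a value, the fit without the filter among them.

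hsp16 (chrII:2660139-2660992), a small heat shock protein gene, had the highest mean sense level of the class. It had 13153 and 7371 sense RPKM in spt6-1, against 1888 and 1983 RPKM in WT (log2 2.35 ± 0.48, SE, n = 2 each; limma adjusted p = 0.0124), although both strains had been moved to 37 °C. The call was lost without either WT library and without the filter. The spt6-1 libraries lay above both WT libraries and also far from each other. Its upstream window, printed above, holds a heat shock element 93 bases and a TATA box 33 bases before the annotated 5′ end. Its partner SPBC3E7.17, 804 bases away, had 11.5 and 4.43 sense RPKM in spt6-1, against 0.304 and 1.27 RPKM in WT. The other genes of highest sense level, fba1 (an aldolase of glycolysis), rpl1001 and rpl301, did not pass the test on the sense strand.

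The largest sense decrease was that of pex7. pex7 (chrI:4722806-4724645), the import receptor of peroxisomes, had 137 and 150 sense RPKM in spt6-1, against 656 and 493 RPKM in WT (log2 -1.99 ± 0.28, SE, n = 2 each; limma adjusted p = 0.00313). mmd1, a deoxyhypusine hydroxylase gene, had 23.1 and 24.0 sense RPKM in spt6-1, against 87.4 and 67.5 RPKM in WT. mae2, a malic enzyme gene, had 261 and 182 sense RPKM in spt6-1, against 510 and 854 RPKM in WT, and lost its call without WT replicate 2, without spt6-1 replicate 2 and without the filter. Each of these had higher antisense RNA in spt6-1, for pex7 7.05 and 6.01 RPKM against 0.514 and 0.537 RPKM in WT.

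atl1, an alkyltransferase-like gene of DNA repair, had 3.65 and 4.29 sense RPKM in spt6-1, against 9.95 and 12.9 RPKM in WT. SPAC2C4.08 had 2.58 and 2.61 sense RPKM in spt6-1, against 6.47 and 6.41 RPKM in WT. In the antisense fit without the filter, 28 of the 30 genes with lower sense RNA (93.3%) and 45 of the 52 with higher sense RNA (86.5%) had higher antisense RNA, against 92.7% of the whole class, and no test of these shares was made. Spearman's rho between the sense and antisense log2 changes of the 535 genes was -0.164. The 2 strands come from the same libraries, and most genes with higher antisense RNA passed no sense test.

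**Figure D4:**
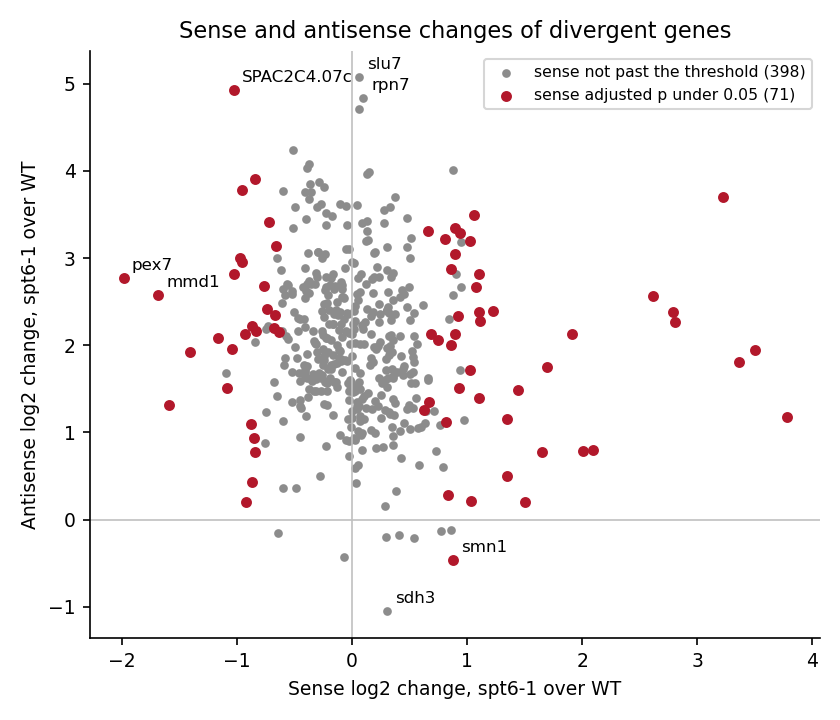
Antisense against sense log2 change, spt6-1 over WT, of the 469 genes tested on both strands. Red points passed the sense test. Nearly all points lie above 0 on the antisense axis, and sdh3 and smn1 are the 2 below it that passed the antisense test, while the sense axis is spread on both sides of 0.

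The ratio of antisense to sense RNA, tested in the same way on the difference of the log2 values, was higher in 410 of the 469 genes and lower in 13, against a background of 71.7% and 6.04%. The ratio of slu7 changed by 5.01 and that of SPAC2C4.07c by 5.96 on the log2 scale, while that of sdh3 changed by -1.35. Without the filter the ratio was higher in 419 of 535 genes and lower in 13, against 65.9% and 6.02% of all coding genes.

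Within the 97 pairs, both genes passed the filtered sense test in 8 pairs, 1 gene in 17 and neither in 72. In the whole class 9.76% of tested genes were higher and 5.63% lower, against 12.1% and 8.20% of all coding genes. Pairs were not counted without the filter, where 20 genes of the class were higher and 16 lower. Both genes were higher in 5 of the 8 pairs and both lower in 2, and in SPAC30D11.02c and ddx27 they went opposite ways. SPAC30D11.02c, uncharacterized, had 3.62 and 3.51 sense RPKM in spt6-1, against 0.863 and 0.246 RPKM in WT. Like SPAC869.03c and SPAC869.04, a pair with both genes higher, it passed the sense filter only through the spt6-1 libraries and had to differ. ddx27, a helicase gene of ribosome assembly, had 15.6 and 14.1 sense RPKM in spt6-1, against 25.7 and 24.0 RPKM in WT. Spearman's rho of the sense changes of the 2 genes of a pair was 0.301 over 97 pairs and 0.256 without the 2 subtelomeric pairs.

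mel1 and pcm2, which encode a melibiase and a protein repair methyltransferase 488 bases apart, were higher together. mel1 had 15.4 and 9.22 sense RPKM in spt6-1, against 1.27 and 1.82 RPKM in WT, and pcm2 had 11.1 and 9.09 RPKM in spt6-1, against 2.12 and 2.47 RPKM in WT. SPAC1399.01c, a transporter gene, had 23.4 and 20.6 sense RPKM in spt6-1, against 4.72 and 12.6 RPKM in WT, and its partner SPAC1399.06 had 12.7 and 14.7 RPKM in spt6-1, against 4.73 and 5.44 RPKM in WT. The sense call of SPAC1399.01c was lost in 7 of 13 alternative settings, among them leaving out WT replicate 1 or either spt6-1 library.

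On the antisense strand, without the filter, both genes of a pair were higher in 85 pairs, 1 gene in 12 and neither in 0, where 92.7% of all genes of the class were higher, and Spearman's rho of their changes was -0.011. SPAC2C4.07c and SPAC2C4.08, whose 5′ ends are 902 bases apart, had the largest summed change, with 17.5 and 19.4 antisense RPKM for SPAC2C4.08 in spt6-1, against 3.37 and 4.69 RPKM in WT. The pairs next in size were rpn7 with SPBC582.08 and SPAC27F1.06c with ost1, a subunit of the oligosaccharyltransferase. ost1 had 4.07 and 3.23 antisense RPKM in spt6-1, against 0.0471 and 0.164 RPKM in WT.

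**Figure D5:**
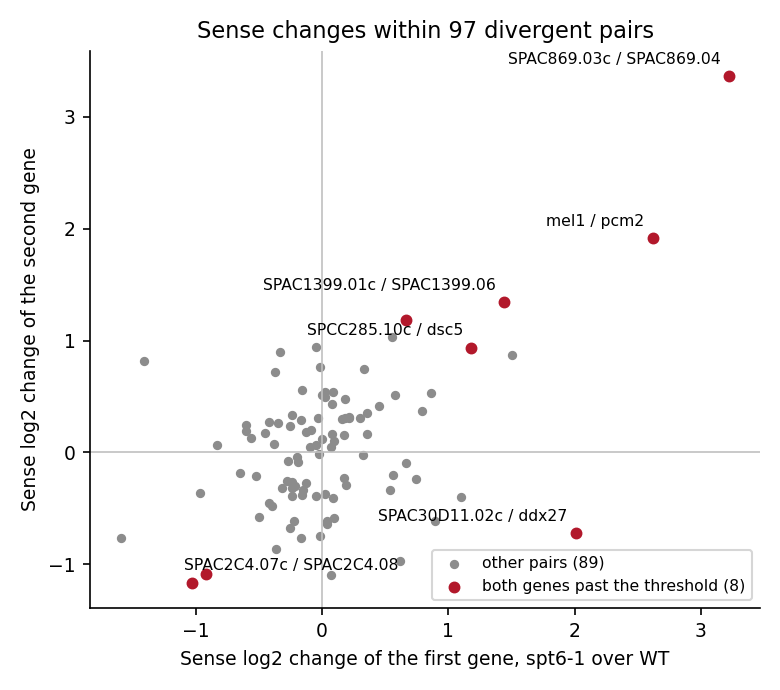
Sense log2 change, spt6-1 over WT, of the second gene against the first in the 97 divergent pairs, genes ordered by identifier. Red marks the 8 pairs in which both genes passed the sense test; of these, 5 lie in the upper right, 2 in the lower left and SPAC30D11.02c with ddx27 in the lower right.

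Gene groups of the class were read from symbols. Their antisense counts are from the fit without the filter on low values and their sense calls from the filtered fit. In that antisense fit 92.7% of the class, 93.1% of the other like genes and 79.8% of all coding genes were higher. In the filtered sense fit 9.76% of the class was higher and 5.63% lower. The groups were not tested against these shares. Of the 13 sense calls in these groups, 9 were lost without the filter (rpl1101, dip1, prp45, cdt2, mug100, mug111, hsp16, ypt7 and spt3) and 4 of them (prp45, cdt2, mug111 and ypt7) also under median centring and under quantile normalization. When 1 library was left out, 11 of the 13 were lost in at least 1 such fit, and pex7 and mcm6 kept their call in every setting. The calls of ypt7, rpl1101, spt3 and prp45 were lost whichever library was left out, those of cdt2 and dip1 without WT replicate 1, WT replicate 2 or spt6-1 replicate 2, that of mug111 without WT replicate 1 or spt6-1 replicate 2, and that of mug100 without WT replicate 1, WT replicate 2 or spt6-1 replicate 1. Of 18 cytosolic ribosomal protein genes, 1 was lower on the sense strand and 0 higher, with a median sense log2 change of -0.56, against 0.02 over all tested genes of the class, and 17 of 18 were higher on the antisense strand without the filter. rpl803 had 2.92 and 3.08 antisense RPKM in spt6-1, against 0.0285 and 0.0594 RPKM in WT, and rpl35 had 82 and 29 antisense reads in spt6-1 against 0 reads in both WT libraries. Of 7 translation factor genes, 7 were higher on the antisense strand and 1, the eIF4G gene tif471, was lower on the sense strand, with 111 and 81.6 sense RPKM in spt6-1, against 218 and 189 RPKM in WT. That call was lost without WT replicate 1, WT replicate 2 or spt6-1 replicate 2. sup35, a release factor gene, had 121 and 126 sense RPKM in spt6-1, against 245 and 173 RPKM in WT, and did not pass (adjusted p = 0.0903).

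All 6 genes listed under ribosome biogenesis were higher on the antisense strand, among them nog1 with 4.66 and 2.92 RPKM in spt6-1, against 0.119 and 0.0225 RPKM in WT, and 1 gene, dip1, was lower on the sense strand in the filtered fit but not without the filter. dip1 and imp2 are known as genes of the actin cytoskeleton. All 6 splicing factor genes were higher on the antisense strand, with prp45 the only one to pass the sense test, at 35.3 and 28.2 sense RPKM in spt6-1, against 20.0 and 19.5 RPKM in WT, a call lost in 8 of 13 alternative settings. Of 3 mitochondrial ribosome genes 2 were higher on the antisense strand and 0 passed the sense test. Of 3 proteasome genes 3 were higher on the antisense strand and 0 passed the sense test, and of 10 spindle and tubulin genes, among which mis3 is known for rRNA processing, 10 were higher on the antisense strand and 0 passed the sense test.

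Of 15 chromatin and transcription genes, among which taf1 is annotated as an autophagy gene, 14 were higher on the antisense strand, and chp1 and spt3, a SAGA subunit, were lower on the sense strand in the filtered fit, spt3 not without the filter. The call of chp1 was lost when WT replicate 1, WT replicate 2 or spt6-1 replicate 2 was left out. rpc82, a subunit of RNA polymerase III, had 8.55 and 10.8 antisense RPKM in spt6-1, against 0.346 and 0.472 RPKM in WT. Of 11 cell division cycle and DNA replication genes, 9 were higher on the antisense strand, while on the sense strand mcm6, a helicase subunit, was lower and cdt2 passed as higher in the filtered fit alone of these 2 fits. cig1, a B-type cyclin gene, had 4.98 and 4.76 antisense RPKM in spt6-1, against 0.131 and 0.164 RPKM in WT. Of 16 meiosis and sporulation genes, 12 were higher on the antisense strand, and on the sense strand mug111 passed as higher and mug100 as lower in the filtered fit but not without the filter.

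Of 18 secretion, vacuole and autophagy genes, 16 were higher on the antisense strand, and ypt7, a Rab GTPase gene of the vacuole, was higher on the sense strand (adjusted p = 0.0455, among the lost calls above), with 155 and 179 RPKM in spt6-1, against 80.3 and 104 RPKM in WT. Both peroxisome genes, pex7 and pex5, were higher on the antisense strand, and pex7 was lower on the sense strand. Neither chaperone gene was higher on the antisense strand, and hsp16 was higher on the sense strand. The histone H3 gene hht1 passed on neither strand, with 889 and 705 sense RPKM in spt6-1, against 445 and 302 RPKM in WT (adjusted p = 0.0509). The antisense counts stand beside the 92.7% of the class and the 79.8% of all coding genes given above. Under quantile normalization, with the filter, the median antisense change was below 0 in ribosome biogenesis, mitochondrial ribosome, proteasome, cell division and meiosis genes, and it stayed above 0 in the other groups tested. The median sense change of mitochondrial ribosome, proteasome and meiosis genes was above 0 as deposited and below 0 under both other scalings, and that of secretion genes was below 0 under quantile normalization.

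Motifs were searched on both strands of the 250 bases upstream of each gene. The TATA box TATAAA was in 47.9% of the divergent genes, against 45.5% of all coding genes, and the MCB box ACGCGT in 3.55% against 2.38%. HomolD (CAGTCACA) was in 2.06% against 1.66%, the stress element TGACGT in 3.74% against 4.57% and the heat shock element GAANNTTC in 8.79% against 9.39%. AACCCT was in 8.04% against 7.87%. None of these letter strings was required to be free of overlap with another. Of the 11 divergent genes with HomolD, 4 are ribosomal protein genes and 6 have a ribosomal protein gene as their partner. An example is trz2, a tRNA processing nuclease gene whose divergent partner across the printed spacer is rps2501. trz2 had 10.1 and 13.9 sense RPKM in spt6-1, against 17.5 and 17.1 RPKM in WT, and did not pass the test.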

How the data were processed

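Per the labels' protocols, polyadenylated RNA of 2 spt6-1 and 2 WT samples was made into strand-specific libraries. TopHat and the build ASM294v2 are named in the submitters' processing notes. How reads were counted, on which annotation, and what happened to reads with several positions was not given in the sources used here. For each library and strand, the deposited table holds RPKM values. From the values, the authors divided sense reads by exon length and antisense reads by locus length, and 100% of values were whole reads within 0.01.

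The members and gene lists were chosen with earlier results of these data known. Values were tested as log2(RPKM + 0.5) with limma 3.58.1 in R 4.3.3 (moderated test with a trend, two-sided, Benjamini-Hochberg over all features fitted, threshold 0.05), on all 4 libraries with group as the only term. A feature entered the sense fit with 2 or more libraries at 1 RPKM and a coding gene the antisense fit with 2 or more libraries at 0.5 RPKM. The table rows were those of the whole series, and the scripts for the fits were tested on simulated data. Named genes are the 6 largest antisense increases, the antisense decreases, the 5 largest sense changes each way, 3 pairs per strand, the 4 highest sense levels, the ends of the distance limit and up to 2 genes per list by antisense p. Exceptions are named in the text. The start codon of 99.9% to 100% of coding genes per chromosome read ATG in the reference used for sequences. Near-identical copies were found with blastn 2.17.0 at 95% identity or more. Alternatives were other pseudocounts, filters, scalings, a fit without trend, voom on the recovered reads, a replicate block, leaving out each library and subsets of the class.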

Additional observations from a re-analysis of the deposited data

How the results depend on the processing

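Limits and alternatives are given for the divergent genes, as sense higher and lower, antisense higher and lower, and ratio higher and lower. As tested, these counts were 52 and 30, 449 and 2, and 410 and 13. Without a filter on low values 20 and 16 genes passed on the sense strand and 1 was lower on the antisense strand. With the filter doubled, 8 were lower in the ratio. Median-centred libraries gave 34 higher on the sense strand. Quantile normalization gave 28 and 64, 176 and 81, and 161 and 53. Lower antisense calls fell to 1 gene with a pseudocount of 0.1 or 1, without trend, with voom on recovered reads and among genes with a same-strand downstream neighbour. With voom, 56 and 31 genes passed on the sense strand, 448 and 1 on the antisense strand, and 5 were lower in the ratio. Among genes at 1 to 500 bases from their partner, 29 were higher on the sense strand, 254 on the antisense strand, 239 higher and 7 lower in the ratio, out of fewer genes. Leaving out 1 library, so that the lone library of a strain is assumed to vary like the other strain's pair and a degree of freedom is lost, gave 23 to 46 higher and 12 to 17 lower on the sense strand, 124 to 439 higher and 1 to 1 lower on the antisense strand, and 106 to 396 higher and 4 to 12 lower in the ratio; the low antisense and ratio counts come with 156 or 157 genes tested, since 1 spt6-1 library alone cannot pass the filter.

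The labels share only a number between the strains. Deviations of same-numbered libraries from their group means correlated at 0.323 on the sense and 0.202 on the antisense strand. With a replicate block the counts were 62 and 40, 450 and 2, and 421 and 14. Under quantile normalization the antisense log2 change changed sign for atl1 (-0.11), SPAC1399.01c (-0.35), SPAC1399.06 (-1.30), rpl301 (-0.012), SPAC186.05c (-0.053), SPAC2G11.09 (-0.077), pts1 (-0.036), cid13 (-0.13), SPAC821.05 (-0.11), SPAC869.04 (-0.0079), rpl1001 (-0.42), mug124 (-0.64), rsm23 (-0.42), SPBC582.08 (-0.087), mae2 (-0.16) and epl1 (-0.63), and the sense change for SPAC1834.13 (-0.23). That scaling removes the shift between the libraries' antisense distributions by its construction, and for the other losses the cause was not tested. Of 89 gene and strand results called, 53 kept their call and direction in every setting that gave a value and 36 did not. Of the 36, 21 lost the call without a change of sign in some setting and 17 changed sign in some setting. A setting in which the filter dropped the gene gave no value and was not counted as a loss. The antisense results of SPAC2C4.07c, rpn7, shk1, nda2 and mis3, for example, had values in 11 settings, against 13 for slu7. Whether such calls would hold in the missing settings was not tested. With 2 libraries a group, small changes of low antisense levels, a few reads each in WT, are not detectable here.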
